A study of Mus musculus with 96 samples.

Results

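Striatal RNA of 10-month-old mice heterozygous for the Q140 allele of huntingtin was compared, gene by gene, with that of wild-type mice of the same age. The libraries were chosen by their titles alone. They were all 8 titled as heterozygous Q140 at 10 months and all 16 titled as wild type at 10 months, so 24 of the 96 libraries in the series. Q140 is a knock-in allele, an expanded CAG repeat placed in the mouse's own Htt gene, so it is driven by the Htt promoter and is present in every cell. All mice carry the strain label C57BL/6. The Q140 mice were caged with Het (Q140) mice, 8 wild types with Wild Type and Het (Q20) mice, and the other 8 with Wild Type and Het (Q50) mice, so genotype and housing cannot be told apart in this comparison. Each group of 8 held 4 females and 4 males, and RNA came from flash-frozen striatum. Heterozygous Q92 mice of 10 months (8 libraries), Q140 mice of 6 months (8 libraries) and wild types of 6 months (16 libraries), with the Q140 and Q92 mice caged among their own genotype and the wild types as above, are used below only to place the 10-month values.

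The expanded repeat in huntingtin causes Huntington's disease, in which the projection neurons of the striatum are the most affected cells. These neurons release GABA, carry dopamine D1 or D2 receptors, and turn dopamine, adenosine and glutamate signals into changes of cyclic AMP, calcium and firing. In mice with long repeats, the RNA of genes that mark these neurons falls over months, while genes that the adult striatum normally holds silent become detectable.

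Levels are given as CPM, expected counts scaled to library size with TMM factors, and differences as log2 fold change, Q140 minus wild types, with the standard error (SE) of the fit. A gene was called when its adjusted p was under 0.05 in edgeR's quasi-likelihood F test (two-sided, Benjamini-Hochberg over all 17285 genes tested). Library totals were 29.1 to 36.4 M counts in Q140 and 29.3 to 34.0 M in wild types. The mean level of 15 projection neuron markers was 8.12 to 8.62 log2 CPM in Q140 and 8.41 to 9.17 in wild types, so every library carries the defining markers of the labelled tissue. Of these 15 markers 8 fell and 0 rose (6 and 0 without Q140 male 4; 13 and 0 with thalamus and cortex levels as covariates), with a median log2 difference of -0.53. The part of this fall in the falls of signalling genes was not tested. Thalamus markers varied widely among the libraries: their mean level was 2.87 to 5.18 log2 CPM in Q140 (median 3.52) and 2.99 to 6.06 in wild types (median 4.53), and 2 of the 15 fell.

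One Q140 library, male 4, stood apart in measures taken over all genes. Each gene's deviation from the wild-type mean was averaged over the quintile of protein-coding genes with the shortest exonic length and over the quintile with the longest. The short genes exceeded the long ones by 0.417 log2 units in male 4, by -0.0764 to 0.145 in the other 7 Q140 libraries and by -0.121 to 0.112 in the wild types. Male 4 also had the highest mitochondrial share of counts among the Q140 libraries, 13.6% against 11.6 to 12.5% in the others and 10.8 to 13.0% in the wild types. With it, the share of genes that rose went from 13.8% in the shortest quintile to 7.38% in the longest, and the share that fell went from 4.2% to 13.0%. Without it, the shares that rose were 7.44% and 7.94% at the ends of the range and 10.3% at most, and the shares that fell were 4.9% and 8.51%. The relation of the calls to transcript length was weaker without this library, and the gene lists below are given with and without it. Over all genes there were 1863 rises and 1461 falls with it, and 1445 and 1188 without it. A list that loses calls without male 4 is therefore not by that alone unlike the other genes.

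**Figure D1:**
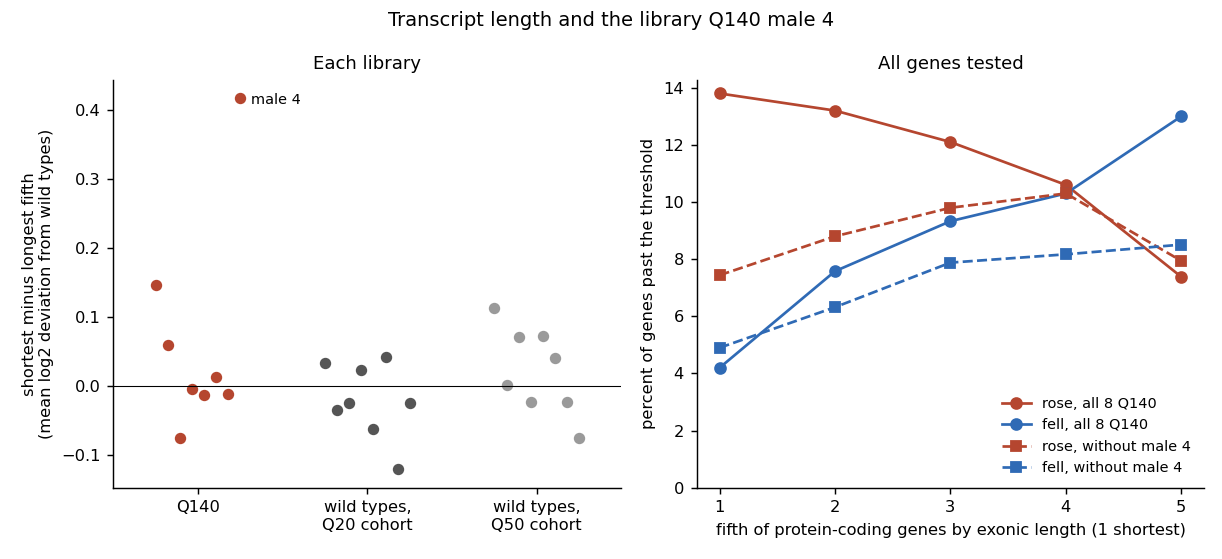
Left, the mean log2 deviation of the shortest quintile of protein-coding genes minus that of the longest quintile, one point per library and one column per group. Right, the percent of genes of each length quintile that rose (red) or fell (blue), with all 8 Q140 libraries (solid lines) and without male 4 (dashed lines). Male 4 lies at 0.417 while no other library exceeds 0.145, and the decline of the solid red line is absent from the dashed one.

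At 10 months, 3324 of the 17285 genes (19.2%) differed between Q140 and wild types, 1863 of them higher (10.8%) and 1461 lower (8.45%). Most differences were small: the median fold was 1.15 among the genes that rose and 1.22 among those that fell. The larger differences were mostly falls. A change of at least 1.5-fold was found for 273 genes that fell and 123 that rose, and one of at least 2-fold for 83 and 34. In 119 genes (0.688%) all 8 Q140 libraries lay above all 16 wild types, and in 148 genes (0.856%) all 8 lay below, and all 267 of these passed the threshold. Without male 4 the counts were 1445 higher and 1188 lower, and 2392 of the 3324 calls were kept in the same direction. By limma on log2(FPKM + 1) the split was 3069 higher and 984 lower of 18389 genes, with the median difference over all genes at 0.0294, and 2761 of the calls were kept in the same direction. The sample names carry an L number whose meaning is not stated. With it as a block there were 1860 rises and 1631 falls, and 2638 of the calls were kept. Q140 male 2 and Het (Q20) male 3, whose names have another form, were left out of that fit. Its counts therefore reflect both the block and the missing libraries. In RNA from whole tissue, fewer cells of a type and less RNA per cell cannot be told apart, which applies to every result below.

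**Figure D2:**
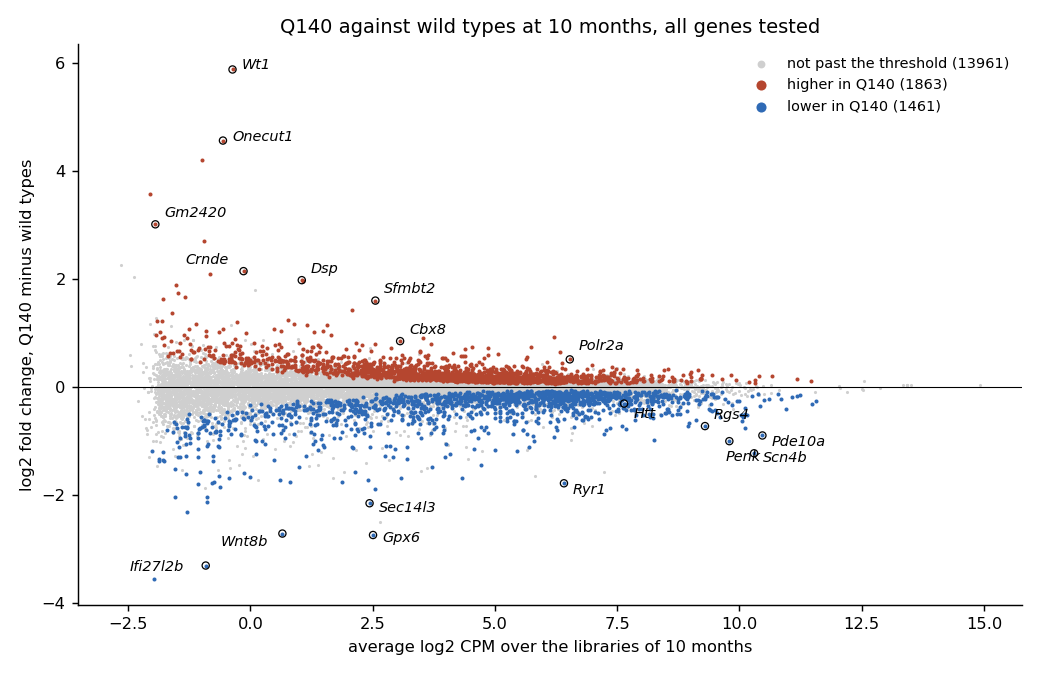
Log2 fold change (Q140 minus wild types, vertical axis) against average log2 CPM (horizontal axis) for all genes tested, with the 1863 genes higher in Q140 in red and the 1461 lower in blue. Rises of large size lie among genes of low level, such as Wt1 and Onecut1, while large falls reach into abundant genes such as Ryr1, Scn4b and Pde10a.

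Rises and falls came from genes of different abundance. When genes were ranked by their wild-type level, rises were commonest in the middle quintile, where 15.3% of genes rose and 6.48% fell. In the most abundant quintile, above 66.2 CPM, the order was the other way round, with 15.7% that fell and 8.36% that rose. Genes on the X chromosome rose more often than autosomal genes (16.6% of 620 against 10.6% of 16391), and the same order was seen without male 4 (13.7% against 8.19%), in females alone (6.77% against 2.35%) and in males alone (5.81% against 3.89%); the difference between the chromosomes was not tested. Processed pseudogenes rose in 1.1% and fell in 1.55% of 453 genes.

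Htt itself, the gene that carries the repeat, was read at 129 to 187 CPM (median 168) in Q140 and 190.0 to 225 CPM (median 203) in wild types. All 8 Q140 libraries lay below all 16 wild types, a log2 difference of -0.31 ± 0.042 (adjusted p = 4.00e-07). A count per gene does not separate the expanded from the normal allele. The fall was not seen at this size in Q92, which lay -0.037 from the wild types (adjusted p = 0.857), and Q140 was below Q92 (adjusted p = 0.000411).

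Genes of calcium handling fell more often than they rose. Ryr1, the calcium release channel of the endoplasmic reticulum best known from skeletal muscle, was at 25.4 to 42.2 CPM (median 30.9) in Q140 and 78 to 151 CPM (median 113) in wild types. The groups did not overlap, and the level was 3.45-fold lower (log2 -1.79 ± 0.22, adjusted p = 5.74e-08). Of 39 measured genes of calcium stores and transport, 11 fell and 4 rose at 10 months (9 and 3 without male 4), with a median log2 difference of -0.15 against 0.0053 over all genes. The members that fell act on both the release and the removal of calcium. Among them were the store channels Itpr1 (-0.52), Itpr2 (-0.13) and Itpr3 (-0.25), the endoplasmic reticulum pump Atp2a2 (-0.33), and the plasma membrane pumps Atp2b1 (-0.57) and Atp2b2 (-0.32). Slc8a3, a sodium-calcium exchanger, fell with little spread, from 55.8 to 65.7 CPM (median 59.2) in wild types to 47.1 to 51.9 CPM (median 49.7) in Q140, and again no Q140 library reached the lowest wild type (log2 -0.27 ± 0.03, adjusted p = 4.93e-09). Casq2, a calcium store buffer of heart muscle, fell too (log2 -0.50 ± 0.071), while its skeletal muscle counterpart Casq1 rose (0.49), as did the mitochondrial uniporter Mcu (0.14) and its partners Micu2 (0.18) and Micu3 (0.11).

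Genes for proteins that read the calcium signal were called in 1 direction in the main fit. Of 40 calcium-binding proteins, calcium-dependent kinases and phosphatases, 13 fell and 0 rose, with a median log2 difference of -0.18. Without male 4 these counts were 10 and 1, with thalamus and cortex levels as covariates 20 and 3, and at 6 months 24 and 1. Pcp4, a small calmodulin-binding protein, was at 343 to 506 CPM (median 385) in Q140 against 534 to 786 CPM (median 590.3), all 8 below every wild type (log2 -0.61 ± 0.059, adjusted p = 1.15e-10). Within Q140 male 4 was highest for this gene, at 506 CPM. The kinase cascade downstream fell at several steps: Camkk1 (log2 -0.35 ± 0.045, all 8 below every wild type), Camkk2 (-0.33), Camk4 (-0.51) and Camk1g (-0.51), with the calcineurin subunit Ppp3ca (-0.41).

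Genes of the cyclic AMP pathway, through which dopamine and adenosine act in these cells, fell at selected points. Of 39 measured members 8 fell and 3 rose (5 and 2 without male 4), with a median log2 difference of -0.12. The shares were 20.51% and 7.69%, against 8.45% and 10.8% of all genes. Adcy5, the main striatal adenylyl cyclase, fell by 0.63 on the log2 scale, and the kinase-regulated phosphoproteins Arpp21 (log2 -0.76 ± 0.18) and Ppp1r1b (-0.53) fell as well. Arpp21 was at 609 to 886 CPM (median 752) in Q140 and 939 to 1717 CPM (median 1289) in wild types, without overlap. Among 19 phosphodiesterases, which break down cyclic nucleotides, 5 fell and 2 rose (4 and 2 without male 4). Pde10a, enriched in striatal projection neurons, fell from 1333 to 2205 CPM (median 1766) to 691 to 1104 CPM (median 967) (log2 -0.90 ± 0.18, adjusted p = 0.000329), and Pde1b (-0.51), Pde7b (-0.43), Pde5a (-0.27) and Pde8a (-0.26) fell by less. Pde4c rose with overlapping groups (log2 0.30 ± 0.07; 4.43 to 5.99 CPM (median 5.19) against 3.15 to 5.18 CPM (median 4.26)), a call that was lost against the Q20-cohort wild types alone (log2 0.19, adjusted p = 0.0945).

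The regulators of G protein signalling, which shorten the signal of G protein-coupled receptors, included falls of several members. Of 21 measured, 9 fell and 2 rose, counts that were the same without male 4, with a median log2 difference of -0.23. Rgs4 was at 412 to 519 CPM (median 429) in Q140 and 591 to 892 CPM (median 709.9) in wild types (log2 -0.73 ± 0.081, adjusted p = 4.39e-09). Male 1, at 519 CPM, was the highest Q140 library and still below every wild type. Rgs11 fell in the same manner (log2 -0.64 ± 0.086), with Rgs14 (-0.80), Rgs9 (-0.67), Rgs6 (-0.46) and the anchor Rgs7bp (-0.51). Rgs19 went the other way: 11.3 to 15.4 CPM (median 12.6) in Q140 against 6.75 to 10.1 CPM (median 8.59), every Q140 library above every wild type (log2 0.54 ± 0.061, adjusted p = 9.49e-09).

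On the receiving side of glutamate synapses, 15 of 50 receptor and postsynaptic scaffold genes fell and 1 rose (14 and 4 without male 4), with a median log2 difference of -0.19. Neto2, an auxiliary subunit of kainate receptors, had no overlap between 82.7 to 119 CPM (median 98) in Q140 and 145 to 213 CPM (median 172) in wild types (log2 -0.88 ± 0.11, adjusted p = 2.25e-07). The kainate receptor subunit Grik2 fell with it (-0.60). Shank3, a scaffold of the postsynaptic density, was at 147 to 260.0 CPM (median 209.9) against 269.7 to 344 CPM (median 307) (log2 -0.56 ± 0.08); without male 4, which had the lowest mean for this list, the difference was -0.50. Metabotropic receptor genes were among the falls, Grm2 (-0.95), Grm3 (-0.37) and Grm4 (log2 -0.44 ± 0.069), and so was the scaffold Homer1 (-0.76). Of the main ionotropic subunits, Grin2b fell by 0.29 on the log2 scale and Gria3 by 0.20.

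Among 40 voltage-gated sodium and calcium channel genes, 9 fell and 3 rose (5 and 4 without male 4). These are 22.5% and 7.5%, against 8.45% and 10.8% of all genes. Scn4b, a sodium channel beta subunit abundant in striatum, was 2.35-fold lower, with 485 to 802 CPM (median 681) in Q140 and 1134 to 1989 CPM (median 1542) in wild types (log2 -1.23 ± 0.16). Scn9a, a sodium channel known from sensory neurons, rose, with 13 to 18.3 CPM (median 15.6) against 6.89 to 12.2 CPM (median 9.67), without overlap (log2 0.65 ± 0.10, adjusted p = 7.86e-06). Cacnb2, a calcium channel subunit, fell (log2 -0.36 ± 0.059). Of 14 endocannabinoid genes 4 fell, led by the receptor Cnr1, which went from 285 to 469 CPM (median 374) to 149 to 239 CPM (median 193) (log2 -0.99 ± 0.17), and 2 rose (3 and 0 without male 4). In this small list the shares were 28.57% that fell and 14.29% that rose.

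Of 45 neurotrophins, growth factors and their receptors 11 fell and 1, Egf (0.37), rose (8 and 0 without male 4). The falls were small. Sort1, a sorting receptor of neurotrophins, lay at 336 to 469 CPM (median 450.3) in Q140 and 473 to 545 CPM (median 516) in wild types, with male 4 lowest at 336 CPM (log2 -0.23 ± 0.038; -0.19 without male 4). Ntrk2 (-0.18), the receptor of BDNF, and Gfra1 (log2 -0.18 ± 0.037), a receptor of GDNF, fell by similar amounts. Of 56 genes of Wnt signalling 6 fell and 1 rose, the same counts without male 4; a share of 10.7% that fell is near the 8.45% of all genes. Wnt8b, a ligand best known from the developing forebrain, was 6.6-fold lower at a low level, 0.208 to 0.425 CPM (median 0.331) in Q140 and 1.25 to 3.11 CPM (median 2.26) in wild types (log2 -2.72 ± 0.27, adjusted p = 1.99e-10). Rspo1, which strengthens Wnt signals at the membrane, was at 2.98 to 4.2 CPM (median 3.22) against 4.26 to 8.53 CPM (median 6.17) (log2 -0.90 ± 0.14), and the kinase Gsk3b fell from 269 to 341 CPM (median 298) to 180.2 to 268 CPM (median 241) (log2 -0.36 ± 0.05).

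Several of the deepest falls belong to genes outside these pathways. Gpx6, a glutathione peroxidase, was at 0.655 to 1.89 CPM (median 1.12) in Q140 and 2.63 to 13.4 CPM (median 7.19) in wild types, 6.72-fold lower (log2 -2.75 ± 0.30, adjusted p = 4.94e-09). Ifi27l2b, a gene of an interferon-responsive family, was nearly absent from Q140, where it reached 0.122 CPM at most, against 0.385 to 1.06 CPM (median 0.75) in wild types (log2 -3.31 ± 0.40). Myo5c, a myosin motor, fell 2.45-fold without overlap (log2 -1.29 ± 0.11), and Clspn, known for its part in the DNA replication checkpoint, fell 2.46-fold (log2 -1.30 ± 0.23). By p the firmest falls were Nrep (log2 -0.81 ± 0.058, adjusted p = 2.68e-14), Ankrd35 (log2 -0.96 ± 0.072) and Ppp4r4, a regulatory subunit of protein phosphatase 4 (log2 -0.74 ± 0.06), each with all 8 Q140 libraries below every wild type. Nrep was at 27.7 to 32.8 CPM (median 29) in Q140 and 45.6 to 66.1 CPM (median 49) in wild types, so that even the nearest libraries of the groups were far apart. Zmynd8, a chromatin reader, fell only 1.26-fold and yet without overlap (log2 -0.34 ± 0.032, adjusted p = 1.29e-10).

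**Figure D3:**
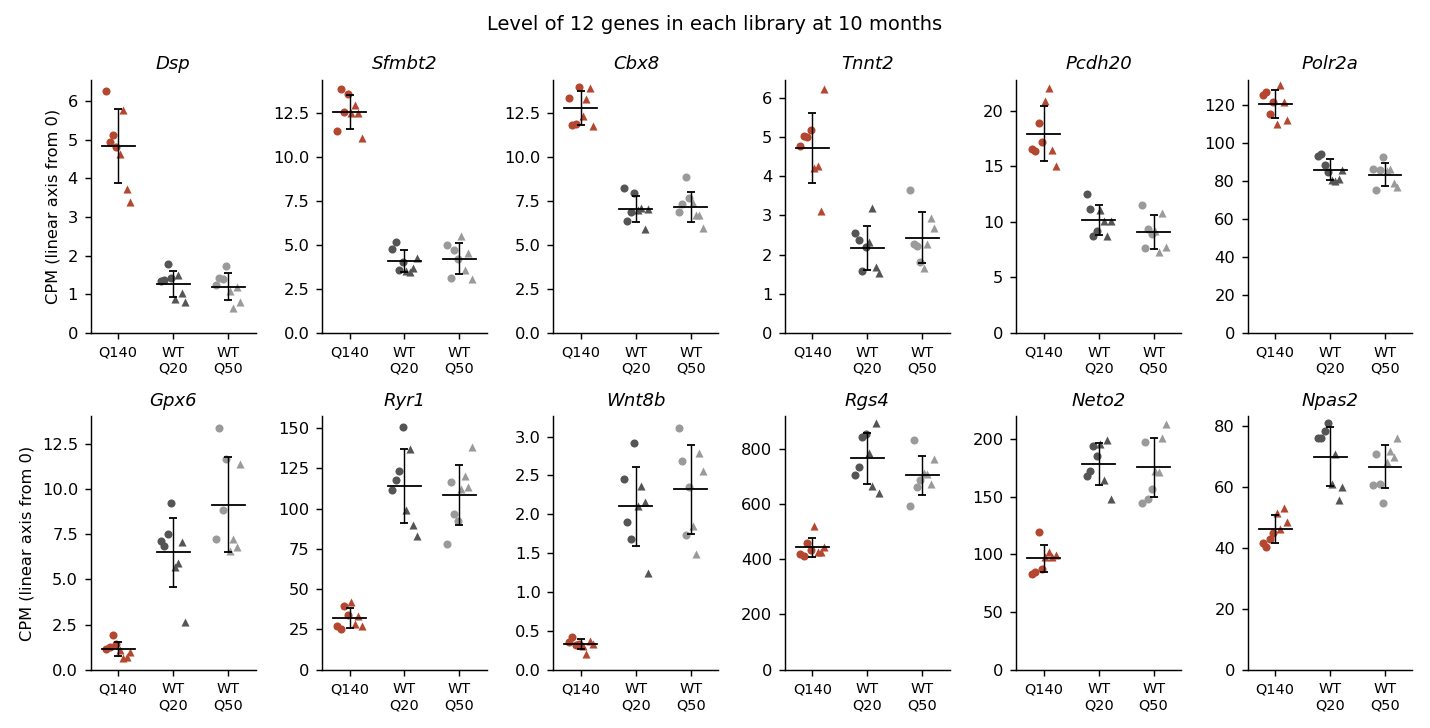
CPM of 12 genes in each library at 10 months (circles females, triangles males), for Q140, the wild types caged with Q20 mice and those caged with Q50 mice, with mean and SD of each group of 8. All of these genes but Tnnt2 have every Q140 library on one side of every wild type, and both groups of wild types lie at similar levels.

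Genes of the circadian clock were called mostly as falls. The clock runs on a loop in which the activators Clock, Npas2 and Arntl switch on, through E-box sequences (CACGTG), repressors such as the Per genes, Nr1d1 and Ciart, and output factors such as Dbp, Tef and Hlf. Of 27 measured clock genes 10 fell and 2 rose, with a median log2 difference of -0.21. Without male 4 these values were 7, 1 and -0.15, and with thalamus and cortex levels as covariates 12, 2 and -0.13. At 6 months 10 fell and 2 rose. From the activator arm Npas2 was at 40.2 to 53 CPM (median 45.6) in Q140 and 54.8 to 81 CPM (median 70.2) in wild types, all 8 below every wild type (log2 -0.57 ± 0.13, adjusted p = 0.00124), and Arntl fell by 0.23 on the log2 scale. From the E-box-driven arm Ciart was at 8.4 to 14.6 CPM (median 10.6) against 11.1 to 27.1 CPM (median 15), with 4 of 8 Q140 libraries below every wild type (log2 -0.54 ± 0.11, adjusted p = 0.000389). Dbp (log2 -0.40 ± 0.10), Nr1d1 (log2 -0.27 ± 0.063), Hlf (log2 -0.44 ± 0.075) and Tef (log2 -0.21 ± 0.072, adjusted p = 0.0337) fell as well; the call for Tef was lost without male 4 (log2 -0.18, adjusted p = 0.0954), without female 1 (log2 -0.20), female 2 (log2 -0.20) or male 2 (log2 -0.20), and against the Q20-cohort wild types alone (log2 -0.13, adjusted p = 0.296), and that for Dbp against the Q20-cohort wild types alone (log2 -0.25). Fbxl21, which controls the stability of clock repressors, fell (log2 -0.48 ± 0.072), with male 4 lowest at 4.54 CPM and the other 7 Q140 libraries at 7.54 CPM or more. The kinase gene Csnk1d rose by 1.09-fold (log2 0.12 ± 0.021). Npas2, Ciart, Dbp, Nr1d1, Tef and Arntl were picked after their values were seen.

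In most mouse tissues the activators Arntl and Npas2 peak at the opposite time of day from Dbp, Nr1d1 and Ciart. These genes, picked after their values were seen, all fell here, and the other clock genes were not sorted by peak time. The labels give no hour of dissection. Levels by sex and cohort are given as a description, and the order of the sexes was not the same in all groups. Ciart was at 11.8 to 14.6 CPM in the 4 Q140 females and 8.4 to 9.46 in the 4 males. The wild types of the Q50 cohort were at 19 to 27.1 CPM in females and 12.7 to 17.2 in males, and those of the Q20 cohort at 11.1 to 14.8 in females and 12.7 to 17 in males. For Npas2 the Q20-cohort wild types were at 75.9 to 81 CPM in females and 55.7 to 70.8 in males, and those of the Q50 cohort at 54.8 to 70.9 in females and 68.1 to 75.9 in males. The Q140 libraries were at 40.2 to 44.9 CPM in females and 46.2 to 53 in males. Whether the hour differed between these groups was not tested.

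Promoter windows of 250 bases before and 50 bases after the start (RefSeq, GRCm38.p6) were found for 12477 of the genes tested, 15920 windows in all, and are shown for 3 clock genes that fell because the E-box is the sequence through which the loop acts. Both strands were searched, and the E-box letters, the same on either strand, are in capitals. Ciart, on chromosome 3 (chr3:95882179-95882478, minus strand), holds 3 E-boxes, 116, 58 and 44 bases before the start. Tef, on chromosome 15 (1 of its 2 windows, chr15:81802423-81802722, plus strand), holds 1, at 127 bases before the start. Nr1d1, on chromosome 11 (chr11:98775328-98775627, minus strand), holds none in this window. Among the other called clock genes with a window, Per3, Arntl, Arntl2, Npas2, Dbp, Hlf and Fbxl21 also hold none.
Ciart: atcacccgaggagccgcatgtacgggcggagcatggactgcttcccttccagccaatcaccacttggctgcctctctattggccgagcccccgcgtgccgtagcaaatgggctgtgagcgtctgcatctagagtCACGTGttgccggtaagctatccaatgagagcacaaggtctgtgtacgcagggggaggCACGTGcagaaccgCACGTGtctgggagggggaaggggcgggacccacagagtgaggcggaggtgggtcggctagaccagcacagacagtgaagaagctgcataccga
Tef: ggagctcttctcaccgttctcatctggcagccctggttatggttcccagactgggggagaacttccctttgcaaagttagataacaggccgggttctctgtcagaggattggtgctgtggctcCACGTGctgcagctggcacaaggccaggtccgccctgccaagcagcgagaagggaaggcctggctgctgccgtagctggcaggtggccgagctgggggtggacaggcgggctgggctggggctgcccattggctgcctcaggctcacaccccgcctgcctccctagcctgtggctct
Nr1d1: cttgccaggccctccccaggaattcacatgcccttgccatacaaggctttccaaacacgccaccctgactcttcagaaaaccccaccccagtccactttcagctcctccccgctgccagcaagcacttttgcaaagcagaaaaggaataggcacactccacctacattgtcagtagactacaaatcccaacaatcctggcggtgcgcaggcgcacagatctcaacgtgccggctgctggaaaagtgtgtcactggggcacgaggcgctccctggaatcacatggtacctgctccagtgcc
An E-box was present in 9.32% of the windows of all genes tested, in 10.3% of those of genes that rose, in 8.55% of those of genes that fell, and in 6 of the 31 windows of clock genes. Other motifs were searched in the same way. The GC box GGGCGG was in 60.8% of the windows of genes that rose and 58.0% of those that fell, against 58.5% of all windows. The CCAAT box was in 39.1% and 37.0%, against 37.1%. The full cyclic AMP response element TGACGTCA was in 3.19% and 2.08%, against 2.76%. The Egr site GCGTGGGCG was in 1.03% and 1.11%, against 1.11%, and the sterol response element TCACNCCAC was in 1.35% and 1.95%, against 1.14%. Matches are letters and not shown to be used as sites.

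On the side of the rises, chromatin genes of the Polycomb group included rises with very small p-values. Polycomb complexes keep developmental genes silent by marking their chromatin. Of 42 measured Polycomb genes 10 rose and 3 fell (8 and 3 without male 4; 8 and 6 at 6 months), with a median log2 difference of 0.04. Sfmbt2, a DNA-associated member of the repressive complexes, was at 11 to 13.8 CPM (median 12.5) in Q140 and 3.05 to 5.53 CPM (median 4.13) in wild types, 3.03-fold higher (log2 1.60 ± 0.10, adjusted p = 3.72e-16). Cbx8, which holds the chromodomain that reads the Polycomb mark, was at 11.8 to 14 CPM (median 12.8) against 5.93 to 8.82 CPM (median 7) (log2 0.85 ± 0.056, adjusted p = 1.96e-15). In both genes every Q140 library lay above every wild type. Smaller rises included those of the ring finger genes Pcgf2 (0.24), Rnf2 (0.19) and Bmi1 (0.18), and Epop, a partner of the methylating complex, fell (-0.61). With thalamus and cortex marker levels as covariates the list held 8 rises and 8 falls, so the excess of rises in the list depends on that choice, while the rises of Sfmbt2 and Cbx8 did not (Sfmbt2 1.68, Cbx8 0.82).

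The promoters of Cbx8 and Sfmbt2 are shown for their content of CpG, the dinucleotide set in capitals here. Genes kept silent by Polycomb often have promoters rich in CpG. Cbx8 and Sfmbt2 are listed as members of Polycomb complexes, and whether Polycomb acts on their own promoters was not tested. The Cbx8 window (chr11:119040864-119041163, minus strand) holds 24 CpG in 300 bases, and the Sfmbt2 window shown (chr2:10372186-10372485, plus strand) holds 16. The other of the 2 Sfmbt2 windows holds 9.
Cbx8: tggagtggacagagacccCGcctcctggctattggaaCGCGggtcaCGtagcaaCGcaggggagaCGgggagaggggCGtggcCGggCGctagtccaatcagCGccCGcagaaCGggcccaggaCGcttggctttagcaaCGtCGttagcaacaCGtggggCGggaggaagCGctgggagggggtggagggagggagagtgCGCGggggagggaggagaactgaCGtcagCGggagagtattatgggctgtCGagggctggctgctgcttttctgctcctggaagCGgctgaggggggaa
Sfmbt2: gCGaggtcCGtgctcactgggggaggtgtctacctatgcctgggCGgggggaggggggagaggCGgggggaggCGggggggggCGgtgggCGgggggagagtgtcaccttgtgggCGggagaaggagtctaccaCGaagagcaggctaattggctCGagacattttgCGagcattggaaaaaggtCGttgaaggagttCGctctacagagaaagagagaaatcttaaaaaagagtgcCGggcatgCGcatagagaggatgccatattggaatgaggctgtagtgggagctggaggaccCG
The median over all 15920 windows was 19 CpG, with 19 in genes that rose, 18 in genes that fell and 23 in the Polycomb list. Median GC content was 60.0% over all windows, 59.3% in genes that rose and 60.7% in genes that fell.

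Among 48 genes of histone acetylation, DNA methylation and the Trithorax group, 7 rose and 1 fell, counts that were the same without male 4. The share that rose, 14.6%, is near the 10.8% of all genes. Hdac1, a histone deacetylase, was at 24.4 to 32.5 CPM (median 27.1) in Q140 against 18.3 to 23.1 CPM (median 21.3) (log2 0.38 ± 0.047, adjusted p = 6.31e-08), without overlap, and Tet2, which oxidises methylated DNA, rose with overlap (log2 0.29 ± 0.054). The repressor Rest (0.21) and its partner Rcor2 (0.36) rose. Polr2a, the catalytic subunit of RNA polymerase II, was among the 10 rises of smallest p, with 110.2 to 131 CPM (median 122) in Q140 and 75.2 to 94.4 CPM (median 85.7) in wild types (log2 0.51 ± 0.036, adjusted p = 1.52e-14). No Q140 library came within the wild-type range. Of 381 measured Zfp genes, a large family of DNA-binding zinc finger proteins, 44 rose and 11 fell (40 and 8 without male 4), so 11.5% rose, near the 10.8% of all genes. Zfp706, the member with the smallest p, fell from 231 to 271 CPM (median 240.4) to 192 to 215 CPM (median 199) (log2 -0.28 ± 0.028, adjusted p = 3.24e-10), and Zfp711, on the X chromosome, rose (log2 0.38 ± 0.059).

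Several of the largest rises were in genes that wild-type striatum holds at a low level. Wt1, a transcription factor of the developing kidney and gonad, was at 1.9 to 5.16 CPM (median 3.75) in Q140 and at most 0.195 CPM in wild types (log2 5.88 ± 0.29), and Onecut1, a liver and pancreas factor, was at 1.69 to 4.02 CPM (median 3.02) against at most 0.248 CPM (log2 4.56 ± 0.36). Crnde, a long noncoding RNA, was at 1.17 to 3.29 CPM (median 2.29) against 0.292 to 0.806 CPM (median 0.464) (log2 2.14 ± 0.18), and Emx2os, transcribed opposite the homeobox gene Emx2, at 3.7 to 6.43 CPM (median 5.29) against 1.88 to 3.06 CPM (median 2.51) (log2 1.14 ± 0.12). Emx2 itself rose (log2 0.66 ± 0.14); the counting is not stated to use strand, so reads of this pair cannot be told apart. Fgfr4, a fibroblast growth factor receptor, stayed under 1 CPM but without overlap, at 0.417 to 0.811 CPM (median 0.529) in Q140 and 0.0593 to 0.31 CPM (median 0.173) in wild types (log2 1.74 ± 0.33). Runx2, a bone transcription factor, rose 1.75-fold (log2 0.80 ± 0.09). The sugar kinase gene Nagk was at 24.5 to 31.8 CPM (median 27.2) in Q140, highest in male 4, and 15.4 to 21.4 CPM (median 18.7) in wild types (log2 0.58 ± 0.049, adjusted p = 3.10e-12), and the kinesin Kif7, known from Hedgehog signalling, rose 1.47-fold without overlap (log2 0.56 ± 0.092).

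A few cell junction and contractile genes were among the rises, although in the main fit both lists held more falls than rises. Desmosomes rivet epithelial and heart muscle cells together. Dsp, their plakin linker, was at 3.38 to 6.28 CPM (median 4.87) in Q140 and 0.661 to 1.78 CPM (median 1.3) in wild types, 3.94-fold higher and without overlap (log2 1.98 ± 0.17, adjusted p = 2.79e-12). Its 2 lowest Q140 libraries were male 4 (3.38 CPM) and male 3 (3.73 CPM). The desmosomal cadherin Dsg2 rose with it (log2 0.96 ± 0.13), from 1.89 to 3.47 CPM (median 2.37) to 3.42 to 6.54 CPM (median 4.66), 7 of 8 above every wild type. Of 29 measured desmosome, keratin and tight junction genes 4 rose (13.79%) and 5 fell (17.24%), against 10.8% and 8.45% of all genes. The counts were 3 and 4 without male 4, and 4 and 2 by limma on log2(FPKM + 1). The falls included the keratin Krt9, at 15.2 to 18.2 CPM (median 16.9) against 23.1 to 44.1 CPM (median 30.9) (log2 -0.95 ± 0.17). A second keratin, Krt20, rose (log2 0.79 ± 0.13). Of 34 muscle contraction genes 3 rose (8.82%) and 8 fell (23.53%), with 2 and 6 without male 4. Tnnt2, the cardiac troponin T, rose from 1.54 to 3.65 CPM (median 2.28) to 3.12 to 6.22 CPM (median 4.88) (log2 1.03 ± 0.12), whereas Tpm2, a tropomyosin, fell from 12.5 to 15.7 CPM (median 13.9) to 7.46 to 10.1 CPM (median 9.25) (log2 -0.59 ± 0.052). Col6a2, a collagen VI chain, rose 1.63-fold (log2 0.70 ± 0.13).

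Of the 22 measured clustered beta protocadherins, single-exon adhesion genes that give neurons their surface identity, 17 rose and 1 fell, and 18 and 0 did so without male 4. Male 4 differed here in the opposite sense from the proteasome genes below: its mean deviation over the list was -0.0583 log2 units, against 0.272 to 0.682 in the other 7 Q140 libraries and -0.287 to 0.216 in the wild types. Pcdhb20 was at 18.7 to 22.4 CPM (median 20.6) in Q140 and 12.2 to 17.6 CPM (median 14) in wild types (log2 0.53 ± 0.057), and the 1 fall was that of Pcdhb8 (-0.42). These genes are near copies of each other, so how reads were shared among them is uncertain. Outside the clusters, Pcdh20 rose from 7.33 to 12.5 CPM (median 9.29) to 15 to 22.1 CPM (median 16.9) (log2 0.90 ± 0.099) and Pcdh10 rose 1.26-fold (log2 0.34 ± 0.045). The neuronal surface protein gene Lrrn3 rose without overlap (log2 0.52 ± 0.052) and the semaphorin Sema7a fell without overlap (log2 -0.57 ± 0.075).

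Of 49 proteasome genes 15 rose and 0 fell (10 and 0 without male 4; 1 and 3 at 6 months), with a median log2 difference of 0.075 (0.048 without male 4). Psme1 and Psme2, the activator subunits that interferon induces in other tissues, had the largest rises of the list, at 19.7 to 27.7 CPM (median 22.9) against 13 to 22.5 CPM (median 17.7) (log2 0.38 ± 0.064) and 19 to 27.7 CPM (median 20.8) against 15.4 to 20.5 CPM (median 17.3) (log2 0.29 ± 0.048). Male 4 was highest for Psme2, at 27.7 CPM. The other 13 rises were 0.06 to 0.14, such as the chaperone Psmd9 (log2 0.14 ± 0.036). Over the list, the deviation of male 4 was 0.235 log2 units, that of the other 7 Q140 libraries -0.00962 to 0.123, and that of the wild types -0.0338 to 0.0785. Mitochondrial ribosomal protein genes rose in 11 of 78 cases (14.1%, near the 10.8% of all genes) and fell in 0, but in 4 and 2 without male 4 and in 1 and 10 at 6 months. Male 4 lay at 0.268 while no other library exceeded 0.0866. Cytosolic ribosomal protein genes gave 11 rises and 4 falls of 97 with male 4 and 4 of each without it, and 0 rises and 32 falls at 6 months. Mrps34 rose 1.18-fold (log2 0.24 ± 0.061) and Mrpl24 rose 1.1-fold, with male 4 highest at 50.2 CPM (log2 0.14 ± 0.036). Of 50 autophagy and lysosome genes 8 rose and 1 fell (6 and 1 without male 4). Of 35 genes of the unfolded protein response 2 rose and 2 fell. The cause of the shift in male 4 was not tested.

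DNA damage and cell cycle genes gave 8 rises and 2 falls of 54 (4 and 2 without male 4); a share of 14.8% that rose is near the 10.8% of all genes. Cdkn1c, a cell cycle inhibitor, was at 2.65 to 4.66 CPM (median 3.13) against 1.49 to 3.44 CPM (median 2.27) (log2 0.61 ± 0.12), and Eda2r, a receptor induced by p53, at 1.29 to 1.95 CPM (median 1.52) against 0.566 to 1.39 CPM (median 1.03) (log2 0.61 ± 0.14). Cdkn1a, the best known p53 target, fell (log2 -0.49 ± 0.12), a call lost against the Q50-cohort wild types alone (log2 -0.36, adjusted p = 0.0672). Of 55 dynein and cilia genes 7 rose and 7 fell (6 and 7 without male 4). These are 12.73% each way, against 10.8% and 8.45% of all genes. Cfap74, of the motile axoneme, fell from 6.17 to 10.0 CPM (median 8.18) to 2.97 to 5.07 CPM (median 3.65) (log2 -1.09 ± 0.11), and the dynein heavy chain Dnah1 fell from 11.8 to 17.8 CPM (median 15.8) to 8.94 to 10.6 CPM (median 9.35) (log2 -0.68 ± 0.10), both without overlap, while the intraflagellar transport genes Ift22, Ift80, Ift172, Ift20 and Ift52 rose by 0.07 to 0.24.

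**Figure D4:**
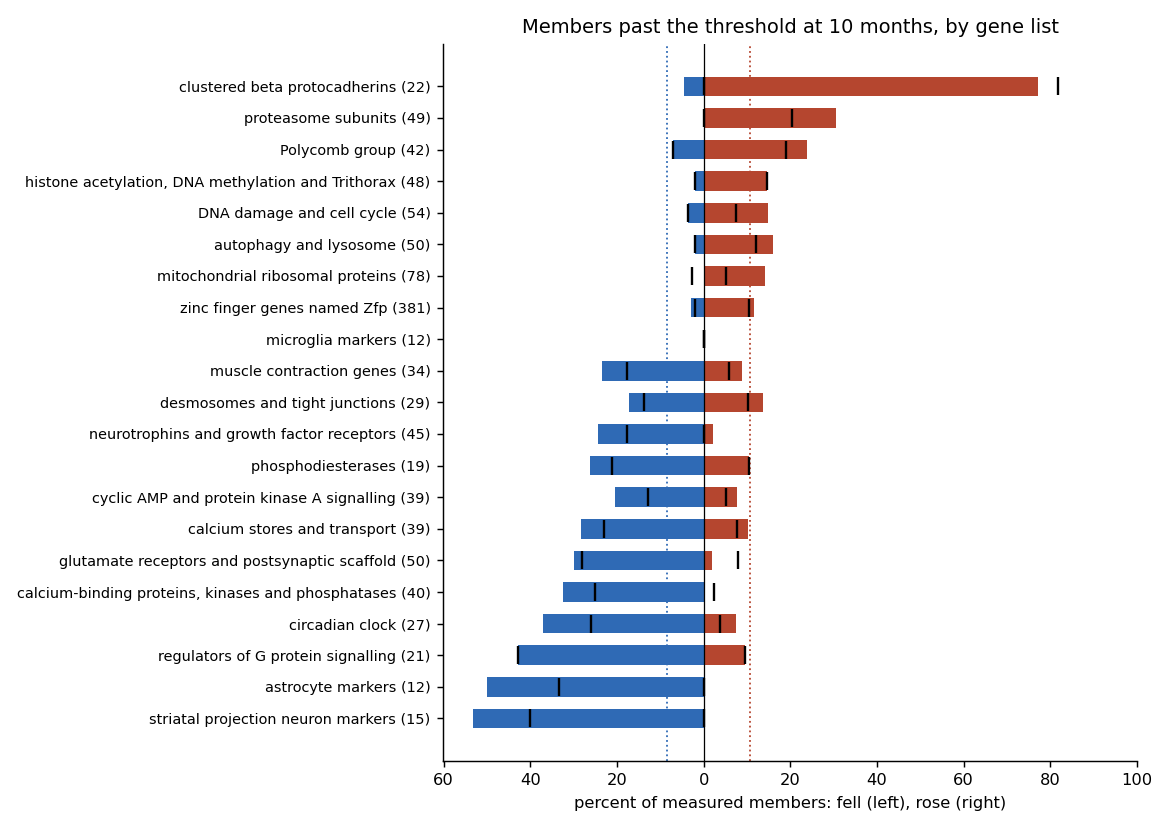
Percent of the measured members of 21 gene lists that rose (red, right) or fell (blue, left) at 10 months, with the number measured in brackets and the percent over all genes as dotted lines (10.8% and 8.45%). Black ticks give the same without Q140 male 4. That fit called 1445 rises and 1188 falls over all genes, against 1863 and 1461, and has no dotted lines of its own. Ticks lie well inside the red bars of proteasome and mitochondrial ribosomal genes, and near the end of the blue bars of the regulators of G protein signalling and the glutamate receptor list.

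Markers of the other cells of the tissue were set beside these lists. Of 12 microglia markers and of 11 striatal interneuron markers 0 passed the threshold. The mean microglia level was 4.95 to 5.04 log2 CPM in Q140 and 4.81 to 5.09 in wild types. Of 23 genes of activated microglia 3 rose (13.0%, near the 10.8% of all genes), at low level: Cst7, at 0.152 to 0.876 CPM (median 0.366) against 0.0663 to 0.475 CPM (median 0.218) (log2 0.86 ± 0.25), Itgax (log2 0.67 ± 0.20) and the lysozyme gene Lyz2 (log2 0.26 ± 0.071). The groups overlapped for each of them. The calls for Cst7 (log2 0.64) and Itgax (log2 0.55) were lost without Q140 female 2, and that for Lyz2 against the Q20-cohort wild types alone (log2 0.19). Astrocyte markers fell in 6 of 12 (4 without male 4, 3 without the 6 libraries of highest thalamus level), in 6 against the Q20-cohort wild types alone and in 1 against the Q50-cohort wild types alone. Glul, the glutamine synthetase, was at 1158 to 1410 CPM (median 1254) in Q140 and 1379 to 1771 CPM (median 1450) in wild types (log2 -0.25 ± 0.035), and the glutamate transporter Slc1a2 at 1935 to 3078 CPM (median 2796) against 2858 to 3629 CPM (median 3188) (log2 -0.26 ± 0.073); the call for Slc1a2 was lost against the Q50-cohort wild types alone (log2 -0.22, adjusted p = 0.0815). The bicarbonate transporter Slc4a4 fell without overlap (log2 -0.41 ± 0.052), with male 4 lowest at 206 CPM. Of 23 reactive astrocyte genes 3 fell and 0 rose (2 and 2 by limma on log2(FPKM + 1)). Oligodendrocyte markers fell in 5 of 12, such as Mal (log2 -0.29 ± 0.07), with overlap, and in 1 of 12 without the 6 libraries of highest thalamus level. Against the Q20-cohort wild types alone 5 fell, and against the Q50-cohort wild types alone 0 fell and Mal was not called (log2 -0.19, adjusted p = 0.127). With thalamus and cortex levels as covariates 3 rose and 1 fell. Vessel markers fell in 4 of 12, with and without male 4: Esam, an endothelial junction gene, was at 12.2 to 15.3 CPM (median 14.9) against 15.5 to 20.5 CPM (median 17.6) (log2 -0.26 ± 0.043, adjusted p = 1.74e-05), and Pecam1 was at 16.8 to 24.5 CPM (median 22.8) against 22.5 to 28.8 CPM (median 26.1) (log2 -0.23 ± 0.043). Of 45 interferon and antigen presentation genes 3 rose (2 without male 4) and 0 fell, and of 26 complement and phagocytosis genes 1 fell (0 fell and 4 rose by limma on log2(FPKM + 1)). The shares, 6.67% that rose and 3.85% that fell, lie below the 10.8% and 8.45% of all genes.

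Some falls went with the thalamus level of the libraries. Chrna4, a nicotinic receptor subunit abundant in thalamus, was at 8.36 to 29.5 CPM (median 12.3) in Q140, with female 2 at 29.5 CPM, and 14.6 to 62 CPM (median 28.1) in wild types. Its difference was -1.17 ± 0.31 and became -0.49 with thalamus and cortex levels as covariates. Cpne9, a calcium-dependent phospholipid-binding protein, went from -1.45 ± 0.33 to -0.81, and Rasd1, a small G protein induced by steroid, from -1.34 ± 0.43 to -0.37. Rasd1 was no longer called without the 6 libraries of highest thalamus level (log2 -1.14, adjusted p = 0.0669). Synpo2, an actin-binding protein (-1.0 ± 0.31 to -0.29), and the zinc finger factor Zic1 (-0.87 ± 0.32 to -0.076) were the 2 thalamus markers called. Both belong to the list whose mean is the thalamus covariate, so their shrinkage under it was built in and tests nothing. The 6 libraries of highest thalamus level were picked by the same mean. The call for Zic1 was lost without any 1 of 7 of the 8 Q140 libraries or of 8 of the 16 wild types, against either wild-type cohort alone and with the covariates, and that for Synpo2 against the Q50-cohort wild types alone (log2 -0.97, adjusted p = 0.0542) and without the 6 libraries of highest thalamus level (log2 -0.81, adjusted p = 0.0521). Female 2 held the highest level of each of these genes among the Q140 libraries. Some other falls did not shrink under the same covariates: Ryr1 went from -1.79 to -2.07, Npas2 from -0.57 to -0.76 and Gpx6 from -2.75 to -2.91. The median of the clock list, to which Npas2 belongs, went from -0.208 to -0.133. The wild types of highest mean clock deviation, Q20-cohort male 3 and Q50-cohort female 4, also had the highest thalamus levels (6.056 and 5.865 log2 CPM). The part of tissue content in the clock falls was not tested.

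At 6 months 4114 of 17339 genes (23.7%) differed between Q140 and wild types, more than at 10 months. Of the genes tested at both ages, 1528 were called in the same direction at both, 770 up and 758 down, and 13 in opposite directions. These are 46.05% of the 10-month calls and 37.29% of the 6-month calls, and 85.71% of the 10-month calls had the same sign at 6 months. Among the 1528, the difference was larger at 10 months in 1047. Differences at the ages correlated across 17143 genes with Pearson's r = 0.383, a description in which genes are not independent points. More genes were called at 6 months, and most of the genes called at both ages had the larger difference at 10.

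Differences between the ages were tested as such, Q140 against wild types at 10 months minus the same at 6 months. The library numbers in the sample names form a separate series for each age. Age and the handling of the libraries therefore cannot be told apart, in this test or in the counts of calls at each age. The test compares effects that were each taken within an age. This passed for 215 of 17670 genes (1.22%), 117 with a higher and 98 with a lower effect at 10 months, and for 48 with no filter and 140 with the replicate number as a block. Of the 212 tested at each age, 142 were called at 10 months and not at 6, 46 at 6 months and not at 10, and 24 at both. Among rises, larger effects at 10 months were those of Wt1 (log2 3.38 at 6 months, 5.88 at 10), Crnde (0.90 and 2.14), Dsp (0.84 and 1.98) and Emx2os (0.14 and 1.14). Among falls, Myo5c went from -0.58 to -1.29, Sema7a from -0.16 to -0.57, Casq2 from -0.03 to -0.50, Fbxl21 from -0.027 to -0.48 and the presynaptic calcium sensor Syt2 from -0.038 to -0.56. Sema7a and Syt2 were highest among the Q140 libraries in female 2 (98.3 and 102 CPM), the Q140 library of highest thalamus level. Their highest wild-type values were in Q20-cohort male 3 and male 4 and Q50-cohort female 4, the wild types of highest thalamus level. The part of tissue content in their age differences was not tested. The endothelial gene Pecam1 (from 0.031 to -0.23) and the astrocyte transporter Slc4a4 (from -0.091 to -0.41) also fell at the later age, with an age difference past the threshold. Trp53i11 (-0.02 and 0.59) and Cys1 (-0.028 and 0.43) were risers of the later age.

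Thalamus genes had age differences of the opposite sense. Slc17a6, the vesicular glutamate transporter of thalamic neurons, differed by 1.35 at 6 months (adjusted p = 0.0386) and -1.66 at 10 months (adjusted p = 0.0709), and Lhx9 (1.41 and -1.69) and Grid2ip (1.64 and -1.35) changed sign likewise. Of the 15 thalamus markers 7 rose at 6 months and 2 fell at 10 months. At 10 months the Slc17a6 values ran from 2.41 to 73.1 CPM in Q140 and from 2.92 to 139.6 CPM in wild types, so the groups overlapped. The part of tissue content in these reversals was not tested.

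**Figure D5:**
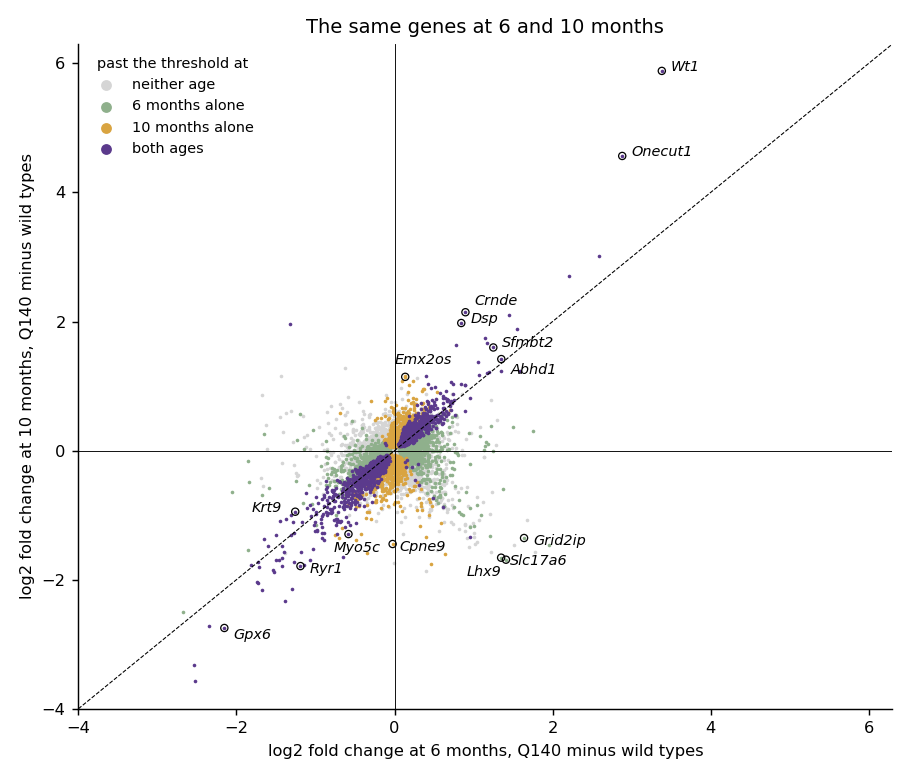
Log2 fold change of Q140 against wild types at 6 months (horizontal axis) and at 10 months (vertical axis), one point per gene tested at both ages, coloured by the ages at which it passed the threshold. The dashed line marks equal change. Wt1, Onecut1, Crnde and Dsp lie above it, and the thalamus genes Slc17a6, Lhx9 and Grid2ip lie in the corner of rises at 6 and falls at 10 months.

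Against Q92 mice of the same age, Q140 differed in 571 genes (3.3%), 293 higher and 278 lower, while Q92 differed from the wild types in 73. The 1863 genes that rose in Q140 had a median difference of 0.195 there and of 0.0616 in Q92, and the 1461 that fell had -0.283 and -0.0964. These genes were picked by their calls in Q140, which favours larger values there, and the comparisons share their wild types. For genes described above the values were as follows. Ryr1 was at -1.79 in Q140 and -0.74 in Q92, Dsp at 1.98 and 0.48, and Sfmbt2 at 1.60 and 0.34. Nrep (-0.81 and -0.066, difference adjusted p = 8.76e-11) and Crnde (2.14 and 0.24, adjusted p = 8.14e-08) separated the alleles. Values of the alleles were close for Krt9 (-0.95 in Q140, -0.95 in Q92) and nearer than for the genes above in rises on chromosome 5, the chromosome of Htt: Abhd1 (1.42 in Q140, 1.17 in Q92), Gm2420 (3.01 and 2.29), Gm10471 (2.70 and 2.25), 5031410I06Rik (2.10 and 1.91) and Gm5067 (1.23 and 1.06).

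A test of the difference between the sexes found 0 of 17285 genes (0.0%) after adjustment, with 746 at an unadjusted p under 0.05. With 4 mice a sex in each group of 8, this does not show that the effect is equal in the sexes. The differences of the main genes in females and males were -1.80 and -1.76 for Ryr1, 1.57 and 1.63 for Sfmbt2, 1.85 and 2.13 for Dsp, -0.92 and -0.87 for Pde10a, and -0.71 and -0.42 for Npas2.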

How the data were processed

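Total RNA came from flash-frozen striatum, and libraries of an enriched RNA fraction were made with Illumina protocols, per the labels' protocols. The authors deposited whole-series tables with an estimated (expected) count and an FPKM value per gene and library; the counts are partly fractional. CASAVA 1.8.2 is named in the submitters' processing notes, and the sources used here do not name an aligner, a quantifier or a build. The deposited expected counts were rounded to whole numbers. Genes were filtered with filterByExpr and scaled by TMM, and edgeR 4.0.16 (R 4.3.3) was fitted with robust quasi-likelihood to all 48 libraries of 10 months (12 groups in the series, 6 of them here) with sex as a covariate. The contrast was Q140 minus the mean of both wild-type groups, with Benjamini-Hochberg adjustment and a threshold of 0.05. SE is the log2 difference divided by the square root of F. The FPKM values of the authors entered limma 3.58.1 as log2(FPKM + 1), with genes of a mean of at least 0.1 FPKM kept, and DESeq2 1.42.0 was an alternative. The age difference came from a fit over both ages, and Q140 against Q92 from the main fit. The labels number the replicates without naming animals, so p-values measure the spread between these samples, which may be partly technical. On simulated counts (17182 genes) 98 of 100 genes changed 1.5-fold and 96 of 100 changed 2-fold were called, with 17 of 16982 unchanged genes. Simulated counts were drawn independently for each gene, and only genes of average log2 CPM above 1 were changed. The simulation therefore does not cover variation shared between genes, a library that stands apart, or changes in low genes.

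Genes were named by rule: Htt, the largest changes and the smallest p-values in each direction, low genes without overlap, and the 3 list members of smallest p. The text prints a choice of these, and further list members were chosen after their values were seen. The members and lists were chosen with earlier results of these data known. Gene names and types came from GENCODE M21 by ID, and promoter windows from RefSeq (GRCm38.p6) by symbol. Some single-gene results are not reported here.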

Additional observations from a re-analysis of the deposited data

Results flagged for a closer look

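In 103 genes named above, libraries were screened within each of 309 groups of 8 for one far from its group (Dixon's test at 95%, which chance passes in about 5% of groups). This gave 38 hits, 22 of them in Q140 and 10 of these in male 4. Values are CPM.

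Q140 male 4 was highest for Nagk (31.8), Pcp4 (506), Rgs19 (15.4), Hdac1 (32.5), Mrpl24 (50.2) and Psme2 (27.7). It was lowest for Sort1 (336), Fbxl21 (4.54), Pecam1 (16.8) and Slc4a4 (206). It was also far from its group in the excess of short over long transcripts (0.417 log2 units), in the mean deviation of mitochondrial ribosomal proteins (0.268) and in that of glutamate receptors and scaffolds (-0.464). The cause was not tested.

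Q140 female 2 was highest for genes abundant in thalamus or moving with its level: Cpne9 (24.3), Rasd1 (8.55), Chrna4 (29.5), Synpo2 (58.7), Zic1 (47.7), Lhx9 (3.08), Grid2ip (7.91) and Slc17a6 (73.1). The same held for female 4 of the Q50-cohort wild types, with Cpne9 at 44.7, Chrna4 at 62, Synpo2 at 96.4, Zic1 at 94.4, Lhx9 at 8.24 and Grid2ip at 18.4. That library was also lowest for Rgs19 (6.75) and highest in the mean deviation of clock genes (0.18).

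Other single libraries apart from their group in Q140 were male 1 for Rgs4 (519, highest) and Mal (273, lowest), male 2 for Esam (12.2, lowest) and male 3 for Rspo1 (4.2, highest). Among the Q20-cohort wild types, male 3 was highest for Tpm2 (15.7), Pcp4 (786), Hlf (307) and Slc4a4 (456) and in the mean deviation of clock genes (0.147). There, male 4 was lowest for Arpp21 (939), and female 1 was highest for Wt1 (0.157) and for calcium-binding proteins (0.0729). Among the Q50-cohort wild types, female 2 was highest for Ankrd35 (15.2) and Zfp706 (271), and male 3 for Cacnb2 (111).

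For 23 genes named above the Q140 effect differed between the ages by the test of that difference. The log2 effect at 10 months minus that at 6 months was 2.48 for Wt1, 1.26 for Crnde, 1.14 for Dsp, 1.02 for Emx2os, 0.68 for Emx2, 0.61 for Trp53i11, 0.46 for Cys1 and 0.25 for Psme2. It was -0.20 for Slc8a3, -0.25 for Pecam1, -0.31 for Slc4a4, -0.40 for Sema7a, -0.44 for Fbxl21, -0.46 for Casq2, -0.51 for Syt2 and -0.70 for Myo5c. Of these, Sema7a and Syt2 had their highest Q140 values in female 2, the Q140 library of highest thalamus level. For genes that move with the thalamus level it was -1.40 for Cpne9, -1.42 for Synpo2, -1.47 for Chrna4, -1.48 for Zic1, -2.92 for Slc17a6, -2.95 for Grid2ip and -3.07 for Lhx9.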

How the results depend on the processing

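The 1863 rises and 1461 falls became 1149 rises against the Q50-cohort wild types alone, 429 and 433 in females, 684 and 498 in males, 3069 rises by limma on log2(FPKM + 1) and 3009 on log2(FPKM + 0.1), 846 falls by limma with no filter, and 2315 falls with thalamus and cortex levels as covariates. Fewer samples entered the comparison in the first 3 of these. The Q20-cohort wild types alone, as many as those of the Q50 cohort, gave 1632 rises and 1341 falls. Against the Q50-cohort wild types alone there were 1149 rises and 984 falls. The causes of these changes were not tested. Leaving out 1 library at a time gave 1445 to 1946 rises and 1188 to 1501 falls, the lowest of each without Q140 male 4. DESeq2 gave 1835 and 1652, RLE scaling 1745 and 1508, the 24 libraries alone 1792 and 1718, and no filter 1629 and 1215. Leaving out the 6 libraries of highest thalamus level, a choice made after seeing the data, gave 1371 and 1104.

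The 215 age differences became 48 with no filter and 140 with the replicate number as a block. Replicate numbers did not pair the samples (3 of 24 pairs correlated above 0.1); with the block there were 1784 rises, 1406 falls and 497 genes between Q140 and Q92. The test between the sexes gave 0 genes with RLE scaling and with no filter. Single-gene calls lost under some setting included Zic1, Synpo2, Tef, Dbp, Pde4c, Cst7, Itgax, Lyz2, Cdkn1a, Mal, Slc1a2, Rasd1, Chrna4 and Cpne9. Genes near 1 CPM carry few counts and their folds are the least precise.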
